A study of Mus musculus with 2 samples.

Results

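The 400 array spots described here are the spots of a mouse brain section richest in 5 marker genes of the thalamus. The members were chosen by ranking every brain spot with at least 3000 counts and 200 features on the summed counts of Prkcd, Synpo2, Shox2, Lef1 and Amotl1 over the spot's total, and taking the top 400. They were taken out of 2983 brain spots that passed the depth cut and 4992 array positions in all, and the other 2583 spots past the cut are called the remaining spots. A spot is a small area of tissue that can hold several cells or parts of cells, so the members are regions and not cells.

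The thalamus is a paired mass of grey matter in the middle of the forebrain whose relay nuclei pass sensory and motor signals on to the cerebral cortex. Its projection neurons release glutamate, loaded into vesicles by the transporter Slc17a6, and they fire either single spikes or bursts, the latter carried by low-threshold T-type calcium channels together with hyperpolarization-activated HCN channels. In rodents most relay nuclei hold few inhibitory neurons of their own, and inhibition comes largely from the reticular nucleus along the edge of the thalamus, while the habenula lies directly above it.

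The series holds 1 section of a normal mouse brain and 1 section of a normal mouse heart, both formalin-fixed and paraffin-embedded (FFPE) and 5 µm thick. Random primers copied all RNA on the section itself, and the labels give for both samples a reverse transcription primer that lacks the second cell barcode. No strain, age, sex, allele or drug is named in the labels, and 1 library was made from each tissue, so no value has a replicate and no p-value is given. Spot positions were not used here, and both libraries list the same 4992 spot barcodes.

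Members held 3054 to 25374 counts each, with a median of 7727, and 3462302 counts in all. The remaining spots held 3000 to 125909, with a median of 8107, and 31897072 counts in all. After thinning each spot at random to 3000 counts, the median spot showed 1251 features among members and 1296 among the remaining spots. Nuclear ribosomal RNA took 34.3% of the members' counts and 30.8% of the remaining spots' counts, and the mitochondrially encoded ribosomal RNAs took 3.41% and 3.77%. All levels below are pooled counts per 1000000 (CPM) of a group of spots, all ratios are members over remaining spots unless another group is named, and each bracketed range is a 95% interval for counting error only. Such an interval takes every count as a separate molecule, and it says nothing of other sections or animals. A gene's level in a spot depends on how many cells of a type the spot holds and on the RNA in each cell, and these cannot be told apart.

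The values that chose the members are given as a description only. Synpo2, an actin-binding protein, stood at 622 CPM in members and 42.9 CPM in the remaining spots. Prkcd, the delta form of protein kinase C, stood at 455 and 15.4 CPM, and the homeobox factor Shox2 at 117 and 5.58 CPM. Lef1, a DNA-binding partner of beta-catenin, stood at 289 and 24.96 CPM. Amotl1, a junction protein of the angiomotin family, stood at 367 and 34.7 CPM. At least 1 count was present in 389 of the 400 members for Synpo2, 370 for Prkcd, 364 for Amotl1, 334 for Lef1 and 230 for Shox2. Counts of all 5 genes were present in 172 members, of 4 genes in 156, of 3 in 59 and of 2 in 13, so no member was chosen on a single gene. The summed level of the 5 genes ran from 1246 CPM in the lowest member to 3914 CPM in the highest. The last 10 spots taken lay at 1246 to 1265 CPM and the first 10 not taken at 1220 to 1239 CPM, on 4 to 24 counts of the 5 genes in these 20 spots, so the boundary falls within a continuous range of values.

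Each rule gene could be read without its own part in the choice by ranking on the other 4. Of the 400 spots chosen in that way, 350 to 383 were members. The gene left out was then 17.0-fold higher for Prkcd (15.5 to 18.6), 15.6-fold for Shox2 (13.2 to 18.6), 12.1-fold for Synpo2 (11.3 to 12.9), 8.98-fold for Lef1 (8.18 to 9.86) and 8.71-fold for Amotl1 (8.03 to 9.44). The 5 genes were thus high in much the same spots. They were picked together as marker genes of the thalamus, so this is a description and gives the label no support. In the heart, Synpo2 stood at 147 CPM and Amotl1 at 50.1 CPM, both above their levels in the remaining brain spots, while Prkcd, Lef1 and Shox2 stood at 7.75, 12.1 and 2.77 CPM.

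The label was set beside 19 other thalamus genes that took no part in the ranking. These genes were chosen with earlier results of this section known, so their levels are a description. Their summed level was 5655 CPM in members, 1493 CPM in the remaining spots and 785 CPM in the heart. Per spot it ran from 1338 to 9455 CPM in members, with a median of 5475, and from 0 to 10650 CPM in the remaining spots, with a median of 1320. All 400 members lay above the median of the remaining spots and 63.5% above their 95th percentile, yet the 2 ranges overlapped, and the highest spot of all was not a member. Along the ranking the summed level was 5881 CPM at ranks 1 to 100, 5651 at ranks 101 to 200, 5541 at ranks 201 to 300 and 5550 at ranks 301 to 400. It was still 5317 CPM at ranks 401 to 500, and was 4037 CPM at ranks 501 to 700 and 1605 CPM at ranks 701 to 1000. The 1232 spots without any count of the 5 rule genes stood at 1293 CPM. The 8 genes of forebrain excitatory neurons ran the other way, with 481 to 536 CPM in the 4 blocks of 100 members and 1534 CPM in the spots without a rule gene count. As a description, the members carried genes that the label names, and the spots ranked just below them carried most of the same genes. The 2009 brain positions below the depth cut stood at 219 CPM for the rule genes and 1649 CPM for the other thalamus genes, both between the remaining spots and the members. In the heart, where relay neurons are lacking, Slc17a6 stood at 4.68 CPM and Ntng1 at 31.2 CPM. Other genes of the list went the other way and stood higher in the heart than in the remaining brain spots. These were Tcf7l2, at 80.0 CPM in the heart against 71.6 CPM, Plekhg1, at 62.1 against 59.2 CPM, Vipr2 and Tnnt1.

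**Figure D1:**
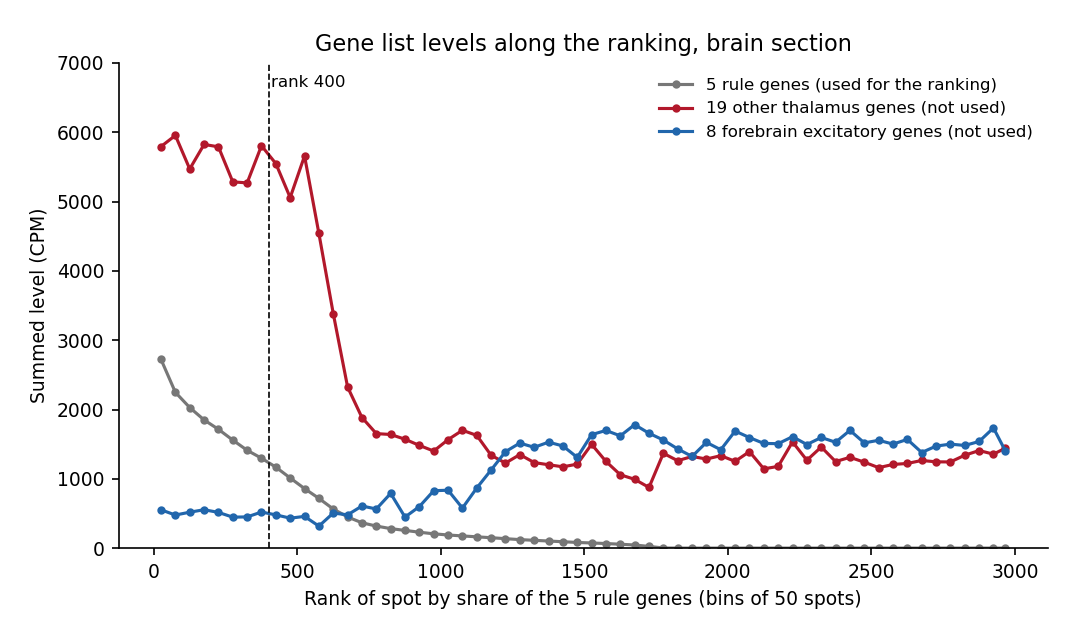
Summed level (CPM, y axis) of the 5 rule genes, the 19 other thalamus genes and the 8 forebrain excitatory genes along the rank of brain spots by their share of rule genes (x axis, pooled in bins of 50 spots, dashed line at rank 400). The other thalamus genes keep their level past rank 400, drop between ranks 500 and 800 and then level off, while the forebrain excitatory genes are low over the same range and rise after about rank 1000.

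Across the transcriptome, members differed from the remaining spots more often by lower than by higher levels. Of 5538 features tested, which are those outside the 5 rule genes and the ribosomal DNA features with at least 20 CPM over both groups together, 479 were at least 1.5-fold higher in members, 8.65% of those tested, and 1105 were at least 1.5-fold lower, 20% of those tested. The median log2 ratio over all tested features was -0.11. At a fold of 2 the counts were 192 higher and 572 lower, and at a fold of 4 they were 29 and 157. The floor runs over both groups together, so 23 of the 479 higher features stood under 20 CPM in the remaining spots and 430 of the 1105 lower ones under 20 CPM in members; these were tested only through the group where they are high. Protein-coding genes made up 467 of the higher and 1045 of the lower features. The median gene span was 70.1 kb among higher features, 124 kb among lower ones and 62.2 kb among the rest. A gene under 20 CPM in 1 group passes the floor only when it is higher in the other, so its direction was fixed. The 1.5-fold mark is a size of difference between pooled counts and not a test. The shares of 8.65% higher and 20% lower are the background for each gene list set against the remaining spots below.

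**Figure D2:**
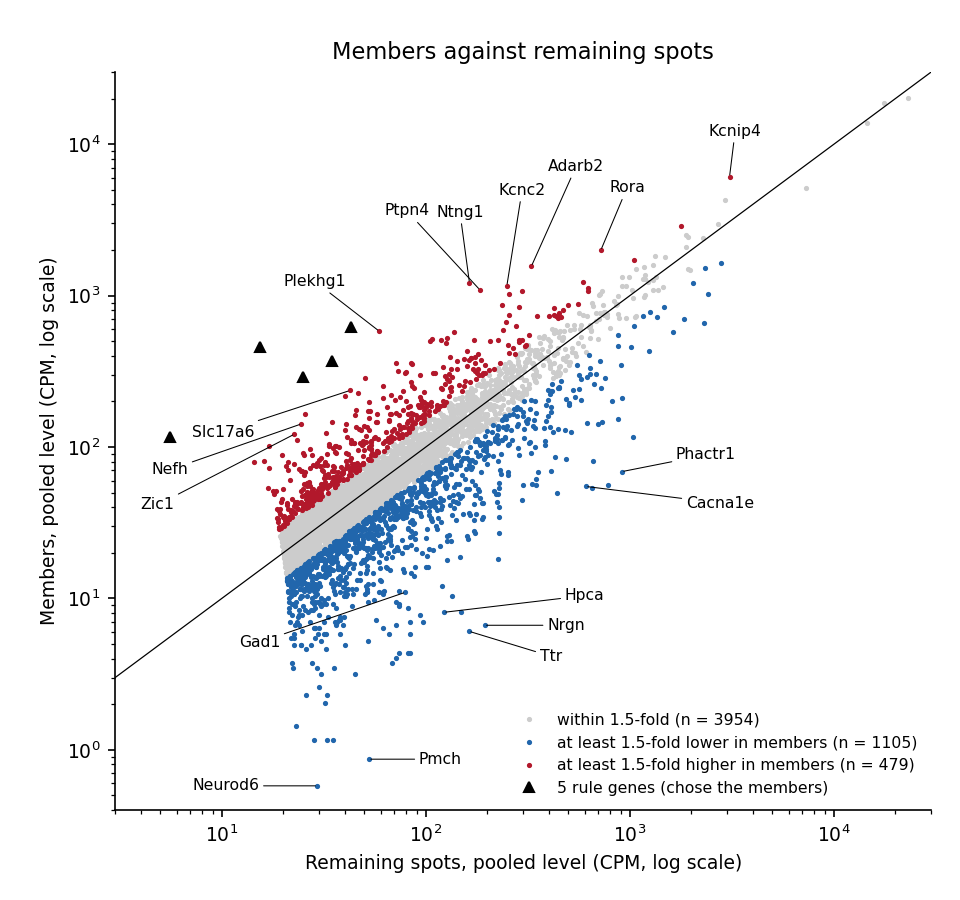
Pooled level of each tested feature in the remaining spots (x axis, CPM, log scale) and in the 400 members (y axis, CPM, log scale), with the diagonal of equal levels. Red points mark the 479 features at least 1.5-fold higher in members, blue points the 1105 at least 1.5-fold lower, grey points the 3954 others, and triangles the 5 rule genes that chose the members; blue points reach farther from the diagonal than red ones.

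Of the 19 other thalamus genes, 10 reached the floor of 20 CPM; 9 of these were higher in members, none was lower, and their median log2 ratio was 2.22, against -0.11 over all tested features. The group was chosen with earlier results of this section known, so its direction is a description. Among its transcription factors, Tcf7l2, a Wnt pathway factor that sets the identity of thalamic projection neurons, stood at 360 CPM in members and 71.6 CPM in the remaining spots, 5.03-fold higher (4.69 to 5.39). The zinc-finger factor Zic1 stood at 122 and 22.7 CPM, 5.36-fold higher (4.74 to 6.05). Its span overlaps Zic4 on the opposite strand, and the use of strand in counting is not given in the sources used here, so counts of the pair could be shared. Rora, a nuclear receptor of relay neurons, stood at 1991 and 720.1 CPM, 2.76-fold higher (2.69 to 2.84). The forkhead factor Foxp2 stood at 143 and 102 CPM, a ratio of 1.39 that did not reach 1.5-fold. Lhx9 and Gbx2, which act in thalamic development, lay under the floor, with 26.6 and 12.2 CPM for Lhx9 and 3.18 and 0.721 CPM for Gbx2.

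The other genes of the list act in adhesion, signalling, RNA editing and transmitter loading. Plekhg1, an activator of small GTPases, stood at 581 and 59.2 CPM and had the largest ratio of all tested features, 9.82-fold (9.22 to 10.5). Ntng1, the adhesion protein netrin-G1 of thalamocortical axons, stood at 1213 and 164 CPM, 7.41-fold higher (7.12 to 7.72), and Gm25681 overlaps its span on the opposite strand. Slc17a6, the vesicular glutamate transporter of relay neurons, stood at 236 and 42.5 CPM, 5.56-fold higher (5.09 to 6.07). Adarb1, an adenosine deaminase that edits glutamate receptor transcripts, stood at 513 and 118 CPM, 4.33-fold higher (4.09 to 4.58). The calcium-binding protein Necab1 stood at 133 and 85.4 CPM, 1.56-fold higher (1.41 to 1.72), the smallest ratio among the 9. Its call ended under 5 of 17 alternatives, with log2 ratios of 0.34 to 1.18 over them, against 0.65 as given; the alternatives are other rankings, depth cuts, weightings and sets of remaining spots.

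Under the floor, 8 of the 9 thalamus genes had ratios above 1. Slitrk6 stood at 43.9 and 4.23 CPM, and Rgs16, a regulator of G protein signalling, at 39.9 and 4.14 CPM. Ramp3, a partner of the calcitonin receptor family, stood at 28.9 and 3.26 CPM, Vipr2, a receptor for vasoactive intestinal peptide, at 19.6 and 4.95 CPM, and Zic4 at 20.5 and 12.7 CPM. Tnnt1, the troponin of slow muscle that also marks relay neurons, stood at 17.0 and 1.505 CPM on 59 counts in members. Calb2, the calcium buffer calretinin, had the only ratio below 1, with 7.798 and 11.1 CPM, a ratio of 0.701 (0.455 to 1.04) on 27 counts in members.

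Single spots showed the same order with overlapping ranges. Ntng1 ran from 0 to 2956 CPM in members, with a median of 1104, and from 0 to 3618 CPM in the remaining spots, with a median of 53.0. For Plekhg1 the member median was 551 CPM and the highest member stood at 1750.5 CPM, while the median remaining spot had no count. Tcf7l2 had a member median of 309 CPM and a highest member of 2155 CPM, Slc17a6 a median of 208 CPM and a highest member of 1480.0 CPM, and the median remaining spot had no count of either. Counts of Ntng1 were found in 98.25% of members and 53.6% of remaining spots, and after thinning every spot to 3000 counts in 94.25% and 29.9%. For Tcf7l2 the thinned shares were 61.75% and 18.1%, for Slc17a6 48.25% and 12.4%, and for Rora 99% and 83.7%. None of the genes read per spot separated every member from every remaining spot.

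Genes outside the lists also had some of the largest ratios. Mctp2, a membrane protein with calcium-binding domains, stood at 166 CPM in members and 25.4 CPM in the remaining spots. Cnksr3, a scaffold of kinase signalling, stood at 102 and 17.0 CPM, tested only through the members, and the tyrosine phosphatase Ptpn4 at 1089.7 and 184 CPM, 5.92-fold higher (5.68 to 6.17). Kitl, the ligand of the receptor kinase Kit, stood at 285 and 50.4 CPM, and Ccdc136 at 218 and 40.0 CPM. Zdhhc22, a palmitoyltransferase, also tested only through the members, stood at 79.4 and 14.4 CPM. Pdp1, the phosphatase that switches on pyruvate dehydrogenase, stood at 227 and 46.2 CPM. Vav3, an exchange factor for small GTPases, stood at 516 and 107 CPM, and Cit, the citron kinase, at 501.1 and 104 CPM. Adarb2, the relative of Adarb1 that lacks editing activity, stood at 1559 and 329 CPM, 4.74-fold higher (4.59 to 4.90). In Ptpn4, 70.2% of members lay above the 95th percentile of the remaining spots, and in Adarb2 52.8% did.

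**Figure D3:**
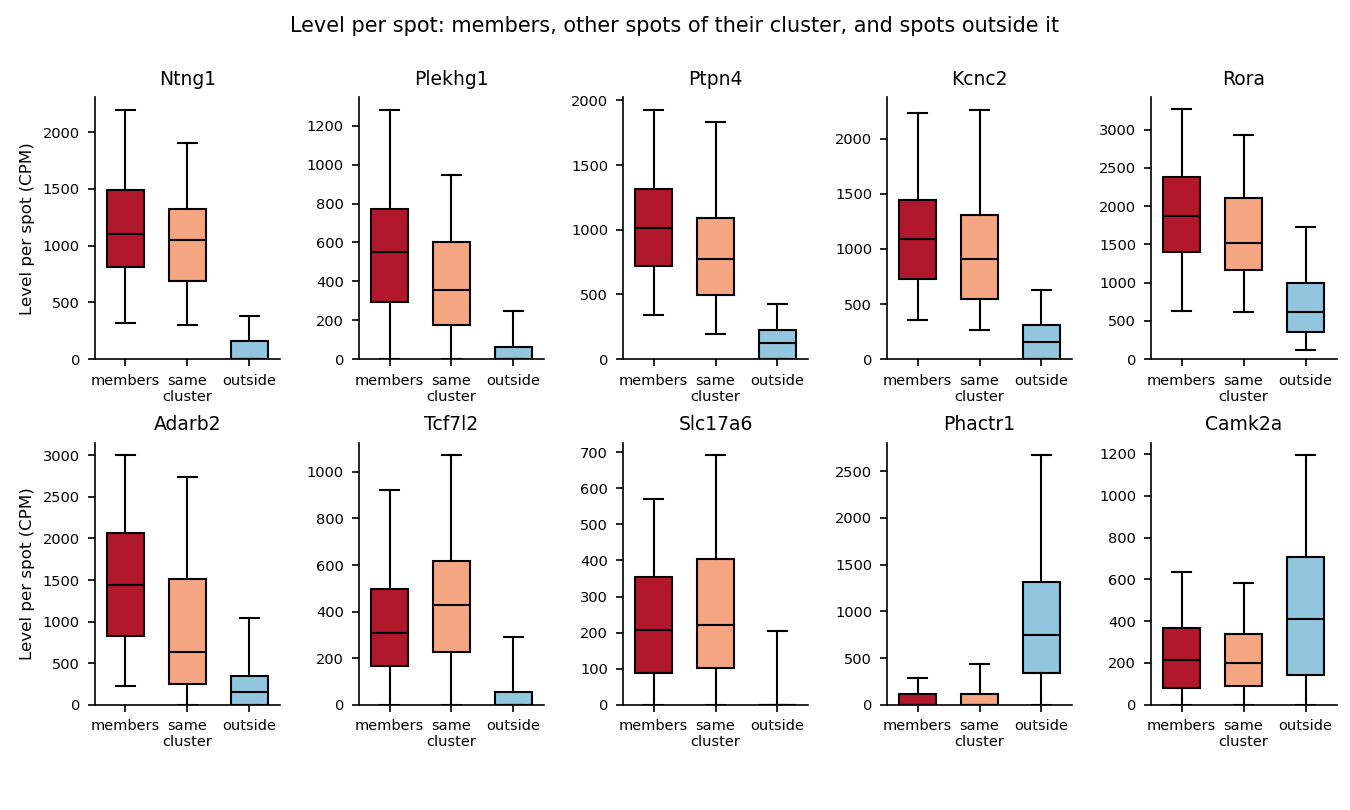
Level per spot (CPM, y axis) of 10 genes in the 400 members, in the 225 other spots of the members' expression cluster and in the 2358 spots outside it; boxes show the quartiles with the median line, and whiskers the 5th and 95th percentiles. For 8 genes the medians of the members and of their cluster neighbours lie above that of the outside spots, and for Phactr1 and Camk2a below it.

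The T-type calcium channels, which open near rest and carry burst firing, were split. Cacna1g, the form of relay neurons, stood at 156 CPM in members and 52.5 CPM in the remaining spots, 2.97-fold higher (2.69 to 3.28). Cacna1i, the form associated with the reticular nucleus, stood at 17.3 and 48.8 CPM, 2.81-fold lower, and Cacna1h at 4.91 and 40.3 CPM, 8.22-fold lower. All 3 genes of the list were tested, with 1 higher and 2 lower. Cacna1i and Cacna1h stood under 20 CPM in members and reached the floor only through the remaining spots. Cacna1g was counted in 64% of members and 37.1% of remaining spots.

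The HCN channels pass a depolarizing current after hyperpolarization. Hcn4 stood at 34.7 CPM in members and 6.52 CPM in the remaining spots, a ratio of 5.32 (4.21 to 6.69), and Hcn2 at 40.7 and 17.4 CPM, a ratio of 2.34 (1.93 to 2.82). In the remaining spots Hcn4 and Hcn2 were too low for the floor of 20 CPM over both groups, so neither counts as called. Hcn3 stood at 2.89 and 4.14 CPM. Pex5l, an accessory protein of these channels, stood at 410 and 320 CPM, within 1.5-fold.

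Of 12 genes for high-threshold calcium channels 11 were tested, with 1 higher, 4 lower and a median log2 ratio of -0.12. The higher one was Cacna1c, an L-type pore, with 1221 and 589 CPM, 2.07-fold higher (2.01 to 2.14). The lowest was Cacna1e, the R-type pore, with 54.9 and 608 CPM, 11.1-fold lower. Cacna2d2 and Cacna2d3, accessory subunits, were 2.25-fold and 1.58-fold lower, and Cacnb1 was 3.18-fold lower. The P/Q-type pore Cacna1a, at 296 and 279 CPM, and the N-type pore Cacna1b, at 195 and 170 CPM, were within 1.5-fold.

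Sodium channels gave 4 higher and 3 lower of 8 tested, with a median log2 ratio of 0.50. Scn4b, the subunit linked to resurgent current in fast-firing neurons, stood at 80.3 and 16.2 CPM, 4.96-fold higher (4.27 to 5.75), and reached the floor only through the members. The pore Scn1a stood at 431 and 159 CPM, 2.72-fold higher, and the subunit Scn2b was 1.84-fold higher. Scn2a, at 178 and 271 CPM, was 1.53-fold lower, a call that ended under 9 of 17 alternatives, Scn3a 2.24-fold lower and Scn3b 4.47-fold lower. Scn8a, at 308 and 284 CPM, was within 1.5-fold.

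Potassium channels were the largest channel list, with 34 of 37 genes tested, 10 higher, 12 lower and a median log2 ratio of -0.03, which was 0.05 when ribosomal and mitochondrial RNA was left out of the total. The higher genes included the fast-activating Kcnc family, whose members allow high firing rates: Kcnc2 stood at 1159.6 and 249 CPM, 4.65-fold higher (4.48 to 4.83), and Kcnc1 was 2.53-fold higher. Of the axonal Kcna family, Kcna4 was 2.83-fold, Kcna2 2.79-fold and Kcna1 1.91-fold higher. Kcnn3, a calcium-activated channel, was 2.77-fold higher, and Kcnj9, a channel opened by G proteins, 2.75-fold higher. Kcnq3, a subunit of the M-current, was 1.76-fold higher. Kcnip4, a calcium-sensing partner of the Kcnd channels, had the highest level of the list in members, 6084 CPM against 3079 CPM. The lower genes were led by another such partner, Kcnip2, at 2.31 and 32.6 CPM on 8 counts, and by Kcnh1, at 28.0 and 172 CPM, 6.14-fold lower. Kcnq5 was 4.27-fold lower. Kcnk2 was 2.97-fold, Kcnh7 2.60-fold and Kcnt2 2.52-fold lower, Kcnt1 2.16-fold, Kcnb2 2.08-fold and Dpp10 1.90-fold lower, and Kcnj6 and Kcnk10 1.73-fold and 1.56-fold lower; the call of Kcnk10 ended under 10 of 17 alternatives. In a sum weighted by level the list stood at 14735 CPM in members and 12140.0 CPM in the remaining spots.

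Glutamate receptor genes gave 2 higher and 8 lower of 21 tested, with a median log2 ratio of -0.29. Over all tested features 8.65% were higher and 20% lower, so more lower than higher calls is not particular to this list. Grm4, a presynaptic metabotropic receptor, stood at 112 and 23.5 CPM, 4.77-fold higher (4.205 to 5.396). The AMPA receptor subunits Gria1, at 154 and 872 CPM, and Gria2, at 206 and 577 CPM, were 5.65-fold and 2.80-fold lower, while Gria4, at 446 and 312 CPM, and Gria3, at 364 and 313 CPM, were within 1.5-fold. Grm5 was 2.65-fold lower, Grm8 2.61-fold, Grm3 2.21-fold, Grik5 2.45-fold and Grik4 2.22-fold lower. The NMDA receptor subunit Grin2a was 1.61-fold lower, a call that ended under 4 of 17 alternatives, and Grin2b, at 1377 and 1184 CPM, within 1.5-fold. Under the floor, the NMDA receptor subunit Grin2c stood at 38.7 and 7.93 CPM, a ratio of 4.88 (3.93 to 6.04).

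GABA receptor genes gave 5 higher and 4 lower of 12 tested, with a median log2 ratio of 0.32. Gabra4, a subunit that pairs with Gabrd outside synapses, stood at 484 and 125 CPM, 3.86-fold higher (3.65 to 4.09). Its partner Gabrd lay under the floor with 42.5 and 8.50 CPM, a ratio of 5.00 (4.06 to 6.13). Gabrb2 was 2.25-fold higher, and the metabotropic receptor subunits Gabbr2 and Gabbr1 1.72-fold and 1.58-fold higher. Gabra5 was 4.68-fold lower, Gabra2 4.12-fold and Gabrg3 1.88-fold lower. The summed level of each receptor family differed less than its single subunits, with 3431 and 2832 CPM for GABA receptors and 7348 and 8778 CPM for glutamate receptors.

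The isoforms of the release machinery split in pairs. Slc17a6 was higher, as given above, while Slc17a7, the vesicular glutamate transporter of cortex and hippocampus, stood at 59.2 and 115 CPM, 1.95-fold lower. Cplx1, a complexin of fast release, stood at 164 and 57.7 CPM, 2.84-fold higher (2.58 to 3.13), and Cplx2 at 8.09 and 149 CPM, 18.4-fold lower (12.7 to 27.7). Vamp1 stood at 75.1 and 20.6 CPM, 3.65-fold higher (3.15 to 4.21), and Vamp2, its vesicle-fusion relative, at 140 and 133 CPM. Synpr, the vesicle protein synaptoporin, was 4.93-fold lower, and Syn2 1.94-fold lower. Syt1, Syt2 and Syn1 had ratios of 0.984, 1.02 and 1.06. Of the 11 genes tested 3 were higher and 4 lower, with a median log2 ratio of 0.04.

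Prkcd, Lef1 and Tcf7l2 belong to pathways whose other genes were read in the same way. Of 8 Wnt and beta-catenin genes tested 3 were higher and 1 lower, with a median log2 ratio of 0.10. Besides Tcf7l2, Ctnnb1, which encodes beta-catenin, stood at 193 and 101.3 CPM, 1.91-fold higher (1.75 to 2.07), and the destruction complex scaffold Axin1 at 29.2 and 19.4 CPM, 1.503-fold higher (1.21 to 1.86). Axin1 reached the floor only through the members, and its call ended under 2 of 17 alternatives. Tcf7l1, a repressor of the same factor family, was 1.96-fold lower, at 12.4 and 24.4 CPM. Axin2, a common target of the pathway, lay under the floor with 10.98 and 12.45 CPM. Apc, at 344 and 286 CPM, and Gsk3b, at 206 and 216 CPM, were within 1.5-fold. Of 7 other protein kinase C genes tested 2 were higher and 3 lower, with a median log2 ratio of -0.17. Prkch, at 48.2 and 26.2 CPM, was 1.84-fold higher. Prkca, at 69.6 and 412 CPM, was 5.92-fold lower, and Prkcb and Prkce were 2.13-fold and 2.09-fold lower.

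Genes of cortical and hippocampal projection neurons were low in members. All 8 forebrain excitatory genes were tested and all 8 were lower, with a median log2 ratio of -2.78, and so were all 5 tested telencephalic transcription factors of 8, with a median of -3.29. Of these genes Nrgn, Neurod2, Neurod6, Tbr1 and Bcl11b stood under 20 CPM in members and reached the floor only through the remaining spots. Nrgn, the calmodulin-binding protein neurogranin, stood at 6.64 and 194 CPM, 29.2-fold lower (19.4 to 46.1), with counts in 5.25% of members and 54.0% of remaining spots. Neurod2 stood at 1.16 and 32.9 CPM on 4 counts. Neurod6, a factor of pyramidal neurons, had 2 counts in all members, 0.578 CPM against 29.4 CPM, a ratio of 0.0196 (0.002375 to 0.0712). Tbr1 was 16.0-fold lower on 5 counts, and Bcl11b 9.88-fold lower. The ratios were smaller for 3 genes of wider expression. Camk2a stood at 240 and 528 CPM, 2.20-fold lower, Mef2c was 2.04-fold lower, and Slc17a7 is given above. Camk2a had a member median of 216 CPM per spot against 370.5 CPM, and its ranges overlapped, with 0 to 1348 CPM in members and 0 to 3326 CPM in the remaining spots.

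Layer and region genes of the telencephalon differed by gene. Of deep-layer cortex genes 5 were tested and 3 were lower, led by Hs3st4, a sulfotransferase of layer neurons, at 49.7 and 438 CPM, 8.81-fold lower. Upper-layer genes gave 2 higher and 1 lower of 5 tested. The 2 higher ones were Rorb, a nuclear receptor shared by cortical layer neurons and thalamus, at 354 and 85.05 CPM, 4.16-fold higher (3.89 to 4.46), and Cux2, at 131 and 74.6 CPM, 1.75-fold higher. Rasgrf2 was 4.63-fold lower. Of 5 hippocampal genes tested 3 were lower, Hpca, the calcium sensor hippocalcin, by 15.15-fold, Cpne6 by 15.8-fold on 7 counts and Dkk3 by 12.1-fold, while Prox1, a homeobox factor of dentate granule cells, was 2.06-fold higher at 116 and 56.1 CPM. Of 3 striatal genes tested Rgs9 was 2.90-fold lower, Pde10a stood at 448 and 519 CPM and Rarb at 37.8 and 56.7 CPM. Hpca, Cpne6, Dkk3 and Rgs9 stood under 20 CPM in members and reached the floor only through the remaining spots. Other genes with the smallest ratios were Icam5, the adhesion protein telencephalin, 24.5-fold lower on 4 counts, Nptx1, a neuronal pentraxin, 19.2-fold lower, Cnr1, the cannabinoid receptor, 18.2-fold lower, and the activity-regulated factor Egr3, 30.4-fold lower on 4 counts. Gpr26 was 17.7-fold lower, with Fgfr2 overlapping on the opposite strand. Ankrd33b was 18.9-fold lower and the actin regulator Baiap2 17.0-fold lower. All of these from Icam5 to Baiap2 were tested only through the remaining spots. Among well-counted genes Dlgap2, a scaffold of excitatory synapses, stood at 56.3 and 780 CPM, 13.85-fold lower (12.03 to 16.03), Phactr1, an actin and phosphatase regulator, at 68.7 and 912 CPM, 13.3-fold lower (11.7 to 15.1), Pde1a at 18.2 and 225 CPM and Cracdl at 10.4 and 134 CPM.

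Markers of the habenula and of the reticular nucleus, which border the relay nuclei, differed by gene. Of the habenula list 2 genes were tested and 1 was lower: Nwd2 stood at 42.5 and 188 CPM, 4.43-fold lower, and Pou4f1, the factor that defines medial habenula neurons, at 22.8 and 20.03 CPM, within 1.5-fold. Gpr151 and Gng8 had no count in members, against 2.07 and 1.10 CPM. Of the reticular nucleus and zona incerta list, the homeobox factor Meis2 stood at 16.2 and 100.4 CPM, 6.21-fold lower, Six3 at 2.31 and 8.50 CPM, Ecel1 had no count in members, and Pvalb stood at 18.8 and 11.5 CPM under the floor, a ratio of 1.63 (1.23 to 2.12). The GABA-synthesizing enzymes Gad1, at 10.98 and 79.4 CPM, and Gad2, at 14.2 and 87.9 CPM, were 7.24-fold and 6.21-fold lower. Counts of Gad1 were found in 8% of members and 42.3% of remaining spots. Slc32a1, the vesicular GABA transporter, had 2 counts in all members. All 4 tested hypothalamic genes were lower, with a median log2 ratio of -2.52. Pmch, Nnat and Hap1, like Meis2, Gad1 and Gad2, stood under 20 CPM in members and reached the floor only through the remaining spots. Pmch, the melanin-concentrating hormone precursor, had 3 counts in members, 0.866 CPM against 52.5 CPM, a ratio of 0.0165 (0.00340 to 0.0483), and Hcrt, Oxt, Trh and Gal had none. The choroid plexus genes Ttr, the carrier transthyretin, and Enpp2 were 26.8-fold and 4.49-fold lower.

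Genes shared by neurons in general were higher, lower or level depending on the gene. Of 12 pan-neuronal genes tested 5 were higher and 2 lower, with a median log2 ratio of 0.56. The higher ones were the neurofilament subunits of large myelinated axons, Nefh, at 142 and 24.5 CPM, 5.79-fold higher (5.16 to 6.49), Nefm, 2.90-fold, and Nefl, 1.82-fold, together with the tubulin Tubb3, 2.22-fold, and the surface protein Thy1, 2.04-fold. Map2, the dendritic microtubule protein, was 2.27-fold lower, and Rbfox3, a nuclear splicing factor of most neurons, 2.07-fold lower. Syt1, at 1274 and 1294 CPM, Snap25, at 1077 and 733 CPM, Syn1, at 123 and 116 CPM, Stmn2, at 135 and 94.6 CPM, and Eno2, at 188 and 127 CPM, were within 1.5-fold.

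Glial and vascular genes differed less. Of 7 myelin genes tested 2 were higher, Mal, a membrane protein of myelin, among them at 44.2 and 28.1 CPM, 1.57-fold, and none was lower, with a median log2 ratio of 0.54. When each spot was given the same weight in place of its counts, that median was -0.17 and none of the 7 was called, while at a higher depth cut and for the top 800 spots the medians were 0.83 and 0.65 and 6 were higher in each. The call of Mal ended under 6 of 17 alternatives. Mbp, the myelin basic protein, stood at 204 and 171 CPM, within 1.5-fold, and its highest member stood at 1650.2 CPM per spot against 4966 CPM among the remaining spots. Of 7 astrocyte genes 4 were lower and 1 higher, with a median of -0.67. The glutamate transporter Slc1a2 stood at 547 and 873 CPM, 1.60-fold lower, Slc1a3 was 2.08-fold, the water channel Aqp4 1.68-fold and Gfap 3.38-fold lower, and Atp1b2 was 1.55-fold higher. For the top 800 spots none of the 4 was lower, the call of Aqp4 ended under 4 of 17 alternatives and that of Atp1b2 under 7. Slc6a11, a GABA transporter of astrocytes outside the telencephalon, stood at 57.2 and 36.8 CPM, 1.55-fold higher, a call that ended under 5 of 17 alternatives. None of 3 endothelial, 2 smooth muscle and 1 microglial genes tested was called. The 13 mitochondrially encoded genes for proteins had ratios of 1.01 to 1.18, and none was called; their median log2 ratio of 0.12 was -0.11 when each spot was given the same weight. Of 6 long non-coding RNAs Miat was 1.72-fold lower, while Malat1, at 5139 and 7334 CPM, and Meg3, at 2457 and 1923 CPM, were within 1.5-fold.

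**Figure D4:**
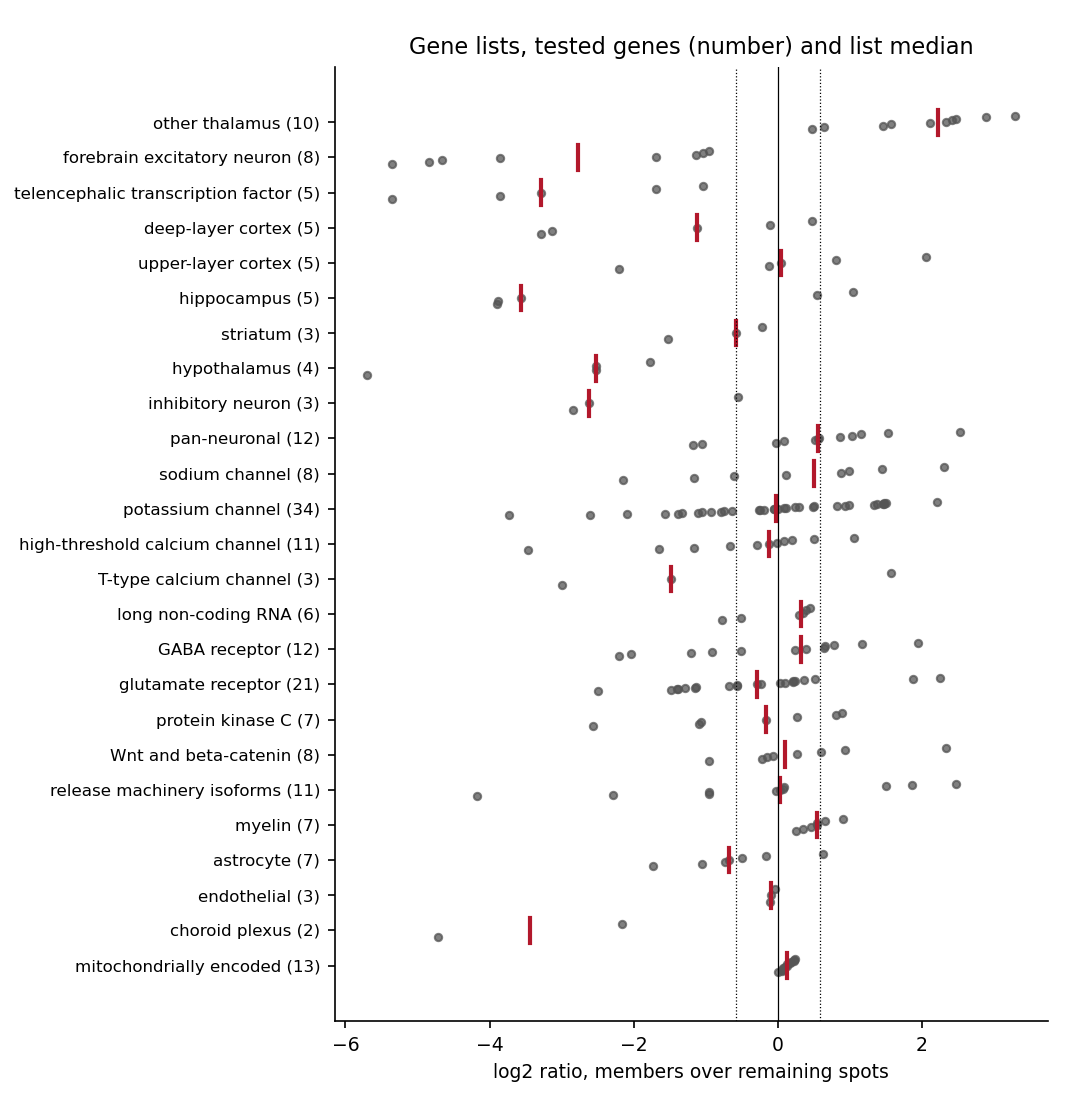
Log2 ratio of members over remaining spots (x axis) for the tested genes of 25 lists (rows, number tested in brackets); each point is a gene, red bars are list medians, and dotted lines mark 1.5-fold. The other thalamus genes lie to the right with a median of 2.22, forebrain excitatory genes to the left with a median of -2.78, and most channel and receptor lists spread to both sides of 0.

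Grouping all 2983 brain spots by expression, with every listed gene, the ribosomal DNA features and mitochondrial genes left out, gave 12 clusters, and all 400 members fell in a single cluster of 625 spots, of which they made up 64%. Its leading genes were Ccdc136, Ptpn4, Cit, Kitl and Rnf220, and since such genes formed the cluster their high level is no finding. The 225 other spots of this cluster had a median of 7091 counts. They stood at 863 CPM for the rule genes and at 5396 CPM for the 19 other thalamus genes, close to the members' 5655 CPM. The other 11 clusters held 622 to 2201 CPM of these genes.

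The members and these 225 neighbours were grouped together by expression. Small differences between them over all features follow in part from that grouping and are a description. Of 5261 features tested, 113 were at least 1.5-fold higher in members, 2.15% of those tested, and 233 were at least 1.5-fold lower, 4.43% of those tested, with a median log2 ratio of -0.03. Of the 19 thalamus genes 14 reached the floor here, with a median log2 ratio of -0.10, and 1 was higher, Plekhg1 at 581 CPM against 380.3 CPM in the neighbours, 1.53-fold (1.40 to 1.67). Necab1, at 133 and 327 CPM, was 2.45-fold lower in members. Tcf7l2, at 360 and 469 CPM, Slc17a6, at 236 and 293 CPM, and Foxp2, at 143 and 190 CPM, also stood lower in members, within 1.5-fold. Ntng1 was nearly level, at 1213 and 1109 CPM. Calb2 stood at 7.798 CPM in members, 33.3 CPM in the neighbours and 9.83 CPM outside the cluster, a ratio over the neighbours of 0.234 (0.143 to 0.375). Tnnt1 stood at 17.0 CPM in members and 5.08 CPM in the neighbours, a ratio of 3.36 (1.65 to 7.70). Scn4b stood at 80.3 against 29.3 CPM, 2.74-fold higher in members (2.03 to 3.75), and Vamp1 at 75.1 against 28.8 CPM, 2.61-fold (1.93 to 3.60), while Kcnc2, at 1159.6 and 977 CPM, and Nefh, at 142 and 107 CPM, were within 1.5-fold. Cacna1e, at 54.9 and 115 CPM, was 2.09-fold lower in members than in the neighbours, and stood far higher outside the cluster, at 637 CPM.

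Against the 2358 spots outside the cluster, members had 520 features at least 1.5-fold higher and 1161 lower, and the median log2 ratio of the 10 tested thalamus genes was 2.58. This set of spots was chosen after the data were seen. Ntng1 stood at 108 CPM there, Slc17a6 at 27.8 CPM and Slitrk6 at 1.33 CPM.

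Among themselves the members fell into 4 groups when they were grouped by expression with the listed genes left out, of 146, 128, 74 and 52 spots. Group 2 stood apart in the calcium-binding proteins. Necab1 stood at 317 CPM there (286 to 350) and at 19.8, 79.1 and 51.6 CPM in groups 1, 3 and 4. Calb1, the buffer calbindin, stood at 86.5 CPM in group 2 and at 11.9, 46.2 and 10.3 CPM in the others, and Calb2 at 16.6 CPM against 2.64, 4.397 and 3.44 CPM, where the intervals of groups 3 and 4 overlapped that of group 2. Pvalb, the buffer parvalbumin, ran the other way, at 3.33 CPM in group 2 (0.907 to 8.52) and 25.1, 33.0 and 27.5 CPM in the others. Thalamic projection neurons are classed in anatomy by these same buffers, with parvalbumin in core cells of the primary relay nuclei and calbindin in matrix cells, and spot positions that would place the groups were not used here.

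The potassium channel Kcnt2 stood at 133 CPM in group 2 and at 18.5, 35.2 and 30.9 CPM in the others, and the factor Lhx9 at 43.3 CPM against 16.5, 21.98 and 17.2 CPM, with intervals that overlap between groups 2, 3 and 4. Tcf7l2 stood at 452 CPM in group 2, 392 CPM in group 4 and 300 and 299 CPM in groups 1 and 3. Oprm1, the mu opioid receptor, is among the genes that formed the groups, so its 149 CPM in group 2 is a description. In these genes the neighbours outside the members were near group 2, with 327 CPM for Necab1, 86.9 CPM for Calb1, 173 CPM for Kcnt2, 34.99 CPM for Lhx9, 469 CPM for Tcf7l2 and 7.90 CPM for Pvalb. Prkcd, a rule gene, was lowest in group 2 among the members, at 356 CPM against 473 to 518 CPM, and stood at 147 CPM in the neighbours.

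Group 1 held the highest levels of Rorb, 460.3 CPM (427 to 496) against 249 to 343 CPM in the other groups, of Scn4b, 110.3 CPM (94.2 to 128) against 37.4 to 94.5 CPM, and of Tnnt1, 24.4 CPM (17.2 to 33.7) against 3.44 to 15.4 CPM. The intervals of group 1 overlapped those of groups 3 and 4 for Scn4b and those of every other group for Tnnt1. Group 3 held the highest levels of Nefh and Mbp. Nefh stood at 226 CPM (185 to 275) and at 84.0 to 161 CPM in the other groups, and Mbp at 281 CPM (235 to 335) against 161 to 223 CPM. The intervals of group 4 overlapped those of group 3 for Nefh and Mbp, and that of group 1 overlapped it for Mbp. Mobp, another myelin gene, stood at 44.1 to 55.0 CPM with overlapping intervals over the 4 groups. Ntng1, at 904 CPM, was lowest there. Nuclear ribosomal RNA made up 38.3% of group 3's counts against 33.2% to 33.98% in the other groups, and its median spot held 5339 counts against 9931.5 in group 1 and 8859 in group 2. The part of depth and of ribosomal RNA in these differences was not tested. Group 4 was led by the adhesion genes Kirrel3, Cntn5 and Opcml, which formed it, had a median of 5189 counts and the lowest level of Rora, 1344 CPM against 1662 to 2170.4 CPM. Hcn4, at 27.5 to 44.7 CPM, and Cacna1g, at 141 to 176 CPM, had overlapping intervals over the 4 groups.

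**Figure D5:**
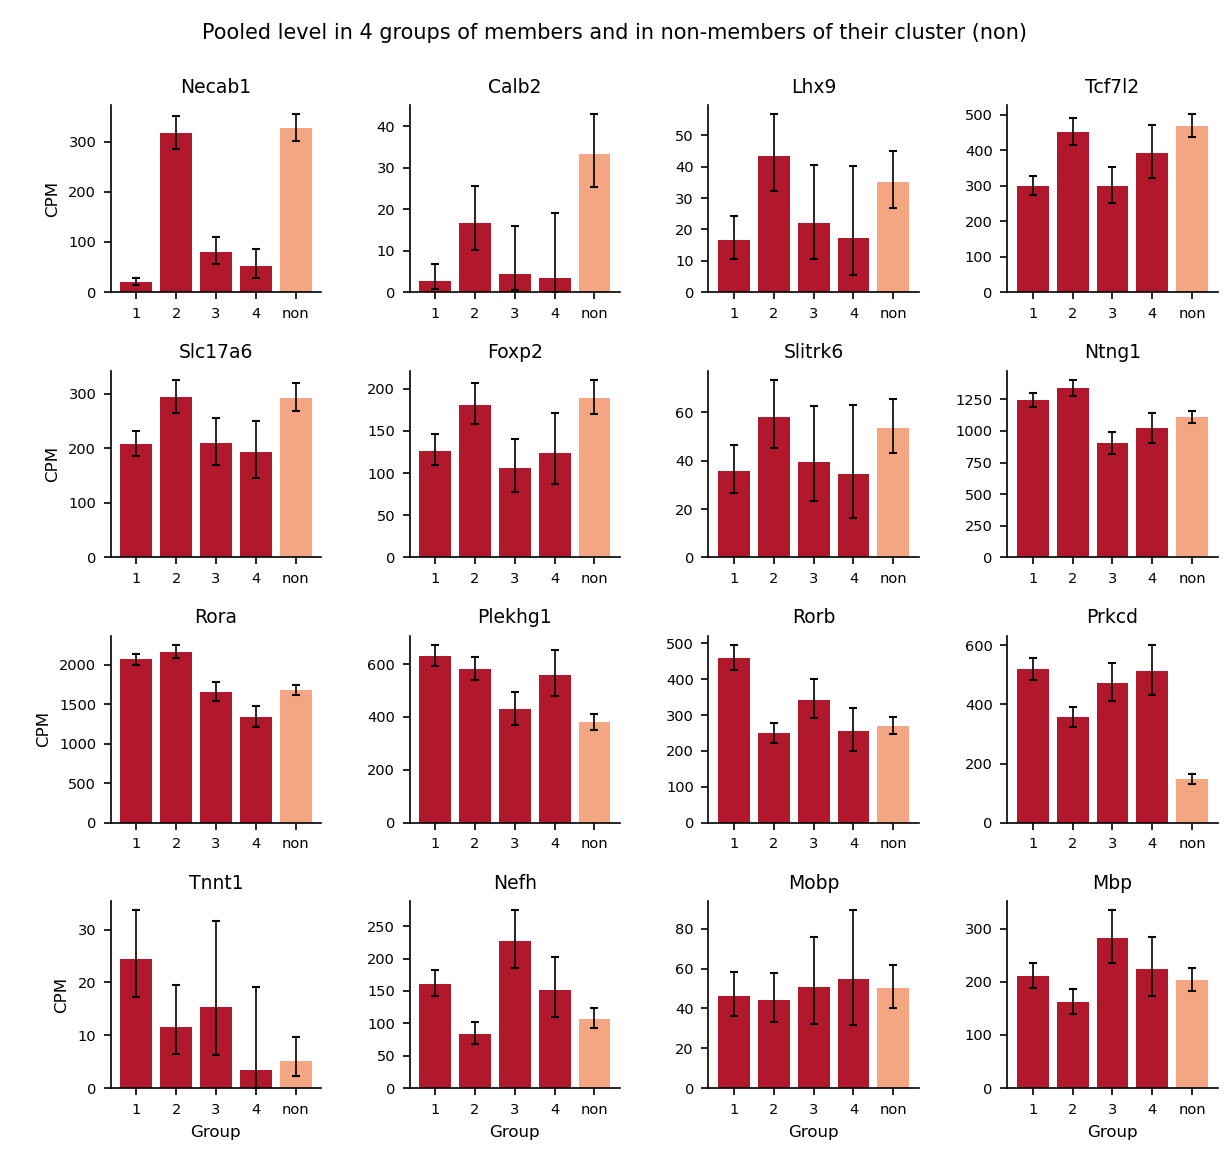
Pooled level (CPM, y axis) of 16 genes in groups 1 to 4 of the members (146, 128, 74 and 52 spots) and in the 225 other spots of their cluster (non); error bars are 95% intervals for counting error only. Necab1, Calb2 and Lhx9 are high in group 2 and in the non-members, Rorb in group 1, and Nefh and Mbp in group 3; Prkcd is a rule gene and is shown as a description.

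Compared with the 400 spots highest in 3 other lists, members shared 33 spots, or 8.25% of either set, with the striatum set, 1 spot with the hypothalamus set and none with the forebrain excitatory set, where an even spread would share 13.4%. These 3 sets were chosen by their own lists and are set beside the members as a description. Slc17a6 stood at 54.8 CPM in the striatum set, 75.6 CPM in the hypothalamus set and 16.3 CPM in the forebrain excitatory set, against 236 CPM in members. Ntng1 stood at 218, 135 and 78.4 CPM and Plekhg1 at 87.2, 48.8 and 28.5 CPM. Rora stood at 1015, 627 and 1007 CPM against 1991 CPM. Foxp2, at 173, 133 and 66.6 CPM against 143 CPM in members, and Necab1, at 149, 53.0 and 103 CPM against 133 CPM, stood higher in the striatum set than in members.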

How the data were processed

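The deposited values are counts: for each section the authors gave a sparse matrix of whole numbers over 40276 features and 4992 barcodes of 16 bases, with 37300503 counts in the brain and 44768698 in the heart. STARsolo and genome build mm39 are named in the submitters' processing notes. The version, the annotation, the use of strand, the counting of introns and the merging of molecular tags are not given in the sources used here. The members, the 42 gene lists with 379 genes and the comparisons were chosen with earlier results of these data known.

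Counts were summed over the spots of a group and scaled to CPM over the group's total. Ratios carry exact conditional binomial 95% intervals, and log2 ratios have 0.5 counts added to each sum. A feature was tested at 20 CPM or more over both groups together, outside the 5 rule genes and 23 ribosomal DNA features, and called at 1.5-fold. Spots are not replicates, so no p-value was computed. The text names, by rule, the 15 largest and 15 smallest ratios, the 8 largest and 8 smallest at 100 CPM or more, the thalamus, T-type and HCN lists in full, and of each other list the genes called and 2 to 4 of the highest level; some genes the rule names are not reported here.

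To group spots, counts were scaled by depth and logged, the 2000 most variable genes were reduced to 20 components, and the Leiden method was run on a graph of 15 neighbours (resolution 0.6), with listed genes, ribosomal DNA features and mitochondrial genes left out. Members alone were grouped on 1000 genes and 10 components. No doublet caller was run, since a spot is an area. Thinning used seed 1. An annotation, GENCODE mouse release 21, was used only for biotypes, gene spans and overlaps, and held 35500 of the feature IDs. Only the ratios and calls were tested on simulated pooled counts with set folds, and the order of ties on a short made-up ranking. The grouping, the thinning and the intervals were not tested in this way. Python 3.11.15, numpy 2.4.6, scipy 1.17.1, pandas 2.3.3, scikit-learn 1.9.0 and leidenalg 0.10.2 were used.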

Additional observations from a re-analysis of the deposited data

How the results depend on the processing

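The numbers of higher and lower features and the median of the other thalamus genes were recomputed under 20 alternatives, 19 planned and 1, the comparison with spots outside the members' cluster, chosen after seeing the data. The alternative that required at least 2 of the rule genes chose the same 400 members, so its values could not differ. It is counted in the 20 and in the 17 below. The clusters, the 4 groups, the comparison with the 225 neighbours, the other sets of 400 spots and the values per spot were not recomputed. The 17 alternatives that change neither the floor nor the fold were also run for other list medians and listed calls. They were run too for 46 named genes, those of extreme ratio and of the thalamus, T-type and HCN lists. None of these 46 that was called turned its direction. Other called genes of the lists did. For the top 800 spots the log2 ratio of Nwd2 moved from -2.14 to 0.43, Gfap from -1.73 to 0.04 and Cacna2d2 from -1.16 to 0.09. Aqp4 reached 0.30 and Mal -0.13 at their extremes. Among all 1105 lower features, 35 were no longer below 0 for the top 800 spots. Under at least 1 of these alternatives 13 of 49 listed genes called higher and 19 of 76 called lower lost the call, most of them for the top 800 spots or with each spot weighing the same. No paired analysis was possible because each tissue has 1 library. The median log2 ratio of the other thalamus genes, 2.22, was 1.919 with ribosomal and mitochondrial RNA left out of the total (12 genes tested), 2.171 and 2.399 at a lower and a higher depth cut, 1.994 and 2.468 for the top 200 and 800 spots, 2.192 when ranked outside ribosomal and mitochondrial RNA, 2.178 when ranked after thinning, 2.254 when ranked without Lef1, 2.029 with each spot weighing the same, 2.118 with the remaining spots reweighted to the members' depth, 2.861 against spots without a rule gene count, 2.582 against spots outside the cluster, and 1.572 and 2.115 at floors of 10 and 50 CPM. Higher features were 758 with ribosomal and mitochondrial RNA left out, where 7324 features were tested. Lower features were 725 for the top 800 spots. At a floor of 10 CPM 1680 were lower, at 50 CPM 257 were higher and 603 lower, and at 2-fold 192 were higher and 572 lower. A floor or a larger fold changes these counts by its construction; for the other alternatives the cause was not tested.

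List medians that changed sign were mostly near 0. Among the top 800 spots the habenula list moved from -0.97 to 0.52, the meninges gene from -1.76 to 0.76 and the astrocyte list from -0.67 to 0.04. With each spot weighing the same, the high-threshold calcium channel list moved from -0.12 to 0.09. Depth limits single spots: Tcf7l2 was counted in 85.75% of members, and at 3000 counts Slc17a6 was seen in 48.25%. Genes with 4 or fewer counts in members have wide intervals.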

Other observations

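The following genes lay outside the rule for named genes and were chosen after their values were seen. Plcb4, a phospholipase of receptor signalling, stood at 579 CPM in members and 138 CPM in the remaining spots, 4.195-fold higher (3.98 to 4.42), while the calcium release channel Itpr1, at 270.1 and 349 CPM, was within 1.5-fold. Other genes of store and membrane calcium transport differed by isoform. Ryr3, a ryanodine receptor, stood at 767 and 448 CPM, 1.71-fold higher (1.64 to 1.78), and Ryr2 at 53.4 and 650.1 CPM, 12.2-fold lower. The calcium pumps Atp2a2 and Atp2b1 were 2.93-fold and 1.71-fold higher, and Atp2b4, at 8.66 and 81.8 CPM, 9.44-fold lower. Hdac9, a histone deacetylase, and Inpp4b, a lipid phosphatase, stood at 1077 and 297 CPM and at 1024 and 257 CPM. The muscarinic receptor Chrm1 stood at 3.47 and 35.3 CPM, and Chrm3 at 139 and 337 CPM.

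Members that lacked counts of a rule gene still carried counts of the other thalamus genes, at lower summed levels. The 30 members without Prkcd held 5222 CPM of them, the 66 without Lef1 held 5450.4 CPM and the 170 without Shox2 held 5599 CPM, against 5679, 5685 and 5683 CPM in the members with that gene. The 36 members without Amotl1 held 5456 CPM against 5667 CPM. The difference was widest for the 11 members without Synpo2, with 4418 CPM against 5672 CPM, Ntng1 at 815 against 1218 CPM and Tcf7l2 at 193 against 362 CPM. Slc17a6 was level there, at 236 CPM in both. These 11 spots had a median of 4012 counts, so single genes rest on few counts, and no interval was computed. Tcf7l2 stood higher, not lower, in the members without Prkcd, at 372 against 360 CPM, and also in those without Shox2 or Lef1. The members without a rule gene were shallower, with a median of 5004 counts without Prkcd against 8104 with it.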
